A study of Saccharomyces cerevisiae with 12 samples.

Results

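YSBN2 and CEN.PK 113-7D, a pair of laboratory strains of Saccharomyces cerevisiae, were compared in glucose-limited chemostat culture on 6 of the 12 arrays of the study, 3 per strain, chosen by their labelled strain and culture. YSBN2 is labelled as prototrophic FY with the genotype ho::Ble/ho::HphMX4, written as for a diploid, although the labels state neither its ploidy nor its mating type. CEN.PK 113-7D is labelled as a prototroph of Mat a. Both strains were grown with aeration at 30 °C and pH 5 in 4 L reactors, diluted at 0.1 per h with a feed of glucose (7.5 g/L) and some ethanol (0.3 g/L). The 6 other arrays, 3 per strain, came from aerobic batch cultures that started at 30 g/L glucose, and they were used to ask whether a strain difference was also present in a second culture. Each array holds the RNA of 1 biological replicate, and each lineage is represented by 1 strain. Levels are log2 signals of probe sets, so that a difference of 1 is a 2-fold difference, and each difference is YSBN2 minus CEN.PK 113-7D with limma's standard error.

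In a chemostat the feed sets the growth rate. The residual glucose is low, so yeast cells respire, and genes repressed by glucose are transcribed. FY strains descend from S288C, the strain of the reference genome, whereas CEN.PK strains are a separate laboratory lineage. Cells of mating type a transcribe the a-specific genes and cells of mating type alpha the alpha-specific genes. Both kinds of haploid transcribe the haploid-specific genes, which a repressor assembled from products of both mating-type loci shuts off in a/alpha diploids.

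The 6 arrays had similar medians, from 11.18 to 11.37 in YSBN2 and from 11.28 to 11.37 in CEN.PK 113-7D. Between 6.4% and 7.5% of the probe sets lay under 4 in YSBN2, and between 6.7% and 7.3% in CEN.PK 113-7D, close to a floor near 2 where the values carry no order of level. Across all 5716 probe sets the correlation was 0.939 to 0.951 between arrays of different strains and 0.99 to 0.996 between arrays of the same strain, and the first principal component, 77.9% of the variance of the 6 arrays, separated the strains. The second YSBN2 array had the highest 10th percentile, 7.34, against 5.96 and 6.72 in the other YSBN2 arrays and 6.04, 6.68 and 7.24 in the CEN.PK 113-7D arrays. Several dim genes below, among them FAR1, FET4, NEJ1 and ARO10, read highest of the YSBN2 arrays in that one. The median SD of a group was 0.658 at means from 4 to 6, 0.626 from 6 to 8 and 0.164 from 10 to 12, so genes dim but above the floor carry the larger errors. At means from 1 to 4, at or near the floor, it was 0.006. A group at the floor therefore adds almost no spread to the standard error, which is shared by all groups. For genes with signal in only some groups, standard errors and p-values can thus look firmer than the arrays with signal alone would give. Of the 12 arrays the third YSBN2 batch array stood apart: it correlated with the other YSBN2 batch arrays at 0.963 and 0.961, against 0.996 between those. It enters the chemostat comparison only through the shared spread, and without it 2200 probe sets were called in the chemostat rather than 1613. HO, the switching endonuclease gene disrupted in YSBN2, read 2.38, 2.11 and 2.11 in the YSBN2 chemostats, at the floor, against 11.46, 11.78 and 11.59 in the CEN.PK 113-7D chemostats, a difference of -9.41 ± 0.10 (adjusted p = 1.1e-11).

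Of the 5716 probe sets 1613 (28.2%) passed limma's moderated test at an adjusted p under 0.05 and are referred to as called. They comprised 736 higher (12.9%) and 877 lower (15.3%) in YSBN2, of which 191 (3.34%) and 302 (5.28%) differed at least 2-fold. The counts of each gene list below are to be read beside the shares of 12.9% and 15.3%. In 2889 probe sets (50.5%) the 3 arrays of one strain lay wholly above the 3 of the other. The median difference of all genes was -0.01. Which direction was the more frequent depended on the scaling: 848 were higher and 787 lower with all arrays set to a common median, and 1079 and 974 after quantile normalization. Without the second CEN.PK 113-7D array 1056 probe sets were called, 450 of them higher. Without the second YSBN2 array 436 were higher, and 571 and 564 were lower without the third CEN.PK 113-7D and the first YSBN2 array. A probe set compares hybridization, so a difference in the probed sequence between the strains and a difference in RNA level cannot be told apart here. In such bulk cultures fewer cells of a type and less RNA per cell cannot be told apart either.

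**Figure D1:**
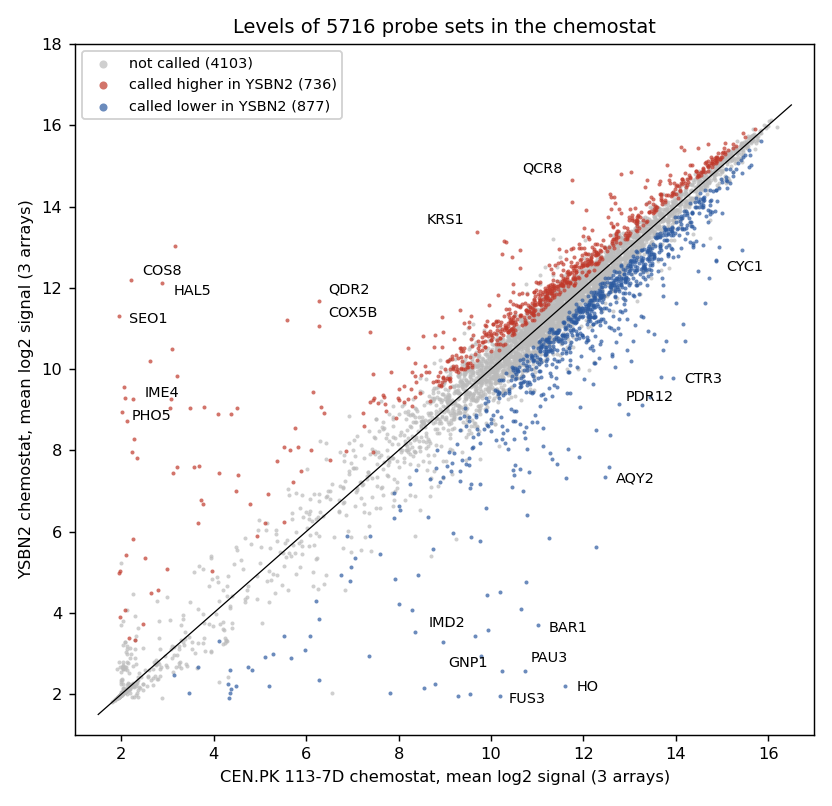
Mean log2 signal of each probe set in the 3 YSBN2 chemostat arrays (vertical axis) against the 3 CEN.PK 113-7D chemostat arrays (horizontal axis), with the 736 probe sets called higher and the 877 called lower in YSBN2 in colour and the line of equal level. The points at the left edge, such as COS8, HAL5 and SEO1, had signal in YSBN2 and lay near the floor in CEN.PK 113-7D, and those along the bottom, such as HO, FUS3 and PAU3, the reverse.

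The largest differences were close to signal against no signal. In 17 probe sets the YSBN2 chemostat mean was 8 or above and the CEN.PK 113-7D mean under 4, and in 15 the reverse held. Of the 17 seen in YSBN2, 12 showed the same contrast in batch, against 3 of the 15 seen in CEN.PK 113-7D. COS8, of a subtelomeric gene family, read 12.10, 12.37 and 12.10 in YSBN2, against 2.33, 2.15 and 2.18 in CEN.PK 113-7D, and the difference of 9.97 ± 0.09 (adjusted p = 5.4e-12) was the largest rise of all. ENA5, a sodium pump gene of a tandem cluster, read 12.78, 13.16 and 13.20 against 3.28, 3.15 and 3.08 in CEN.PK 113-7D (9.87 ± 0.12, adjusted p = 1.8e-11) by a probe set that may also read its near-identical neighbours. The second ENA5 probe set, not marked as shared, differed by 7.39 ± 0.41. In each of these the YSBN2 arrays lay far above every CEN.PK 113-7D array, and the sizes are limited by the floor.

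SEO1, a putative permease gene, read 11.29, 11.58 and 11.02 in YSBN2 and 1.94, 1.94 and 1.93 in CEN.PK 113-7D (9.36 ± 0.50, adjusted p = 1.8e-06). HAL5, a kinase gene of salt tolerance that stabilizes nutrient transporters, read 11.88, 12.26 and 12.25 in YSBN2 and 3.22, 2.75 and 2.69 in CEN.PK 113-7D (9.24 ± 0.25, adjusted p = 1.4e-08). PHO5, encoding the secreted acid phosphatase, read 8.98, 9.75 and 9.15 in YSBN2 and 2.08, 2.07 and 2.07 in CEN.PK 113-7D (7.22 ± 0.20, adjusted p = 1.7e-08). All 3 genes were thus without signal in the CEN.PK 113-7D chemostats. Also in this group were the siderophore transporter gene ARN2 (7.50 ± 0.15), EHD3, a mitochondrial hydrolase gene of valine breakdown (7.58 ± 0.47), AIF1, a mitochondrial cell death gene (6.93 ± 0.14), the acetyltransferase gene AYT1 (6.58 ± 0.20) and the putative purine and cytosine permease gene FCY22 (6.19 ± 0.27). Among these, SEO1 and AIF1 had a chemostat difference that itself differed from the batch one, by 4.14 and -1.85.

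Several of the genes with signal in YSBN2 alone lay beside another gene called at least 2-fold higher, by the gene order of RefSeq assembly R64 among measured genes. EHD3, KRS1 and ENA5 formed a run on chromosome IV, COS8 and ARN2 on VIII, QCR8 and HAL5 on X, FCY22 and CEM1 on V, PAU18 and AYT1 on XII, and YLR156W and YLR157W-E on XII. YLR156W was measured by a probe set that may read relatives. A second, dimmer probe set of YLR157W-E showed no such difference, with 0.00 in batch and -0.02 for the chemostat difference minus the batch one. KRS1, the lysyl-tRNA synthetase gene between EHD3 and ENA5, had signal in both strains, 13.22, 13.40 and 13.54 in YSBN2 against 9.70, 9.72 and 9.68 in CEN.PK 113-7D (3.68 ± 0.14, adjusted p = 1.3e-07). QCR8, a subunit gene of the cytochrome bc1 complex beside HAL5, read 14.79, 14.63 and 14.53 in YSBN2 and 11.64, 11.85 and 11.80 in CEN.PK 113-7D (2.89 ± 0.25, adjusted p = 4.2e-05). Both lay beside a gene that was near the floor in CEN.PK 113-7D. In the other direction YAR066W and YAR068W were neighbours on chromosome I (-7.32 ± 0.82 and -4.98 ± 0.64), and the aquaporin gene AQY2 and the adjoining YLL053C on XII (-5.13 ± 0.23 and -4.15 ± 0.18). Counting all adjacent measured genes called at least 2-fold in the same direction, with or without signal in both strains, there were 12 pairs and 2 runs of 3 genes called higher. Called lower were 24 pairs and 2 runs of 3. Of all probe sets 3.34% were called at least 2-fold higher and 5.28% at least 2-fold lower. How many runs such shares would give without regard to position was not tested, so nothing is read from these counts.

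Among the 15 probe sets with signal in CEN.PK 113-7D alone were HO, FUS3 and BAR1, described with the mating genes, and others without signal in either strain in batch. PAU3, of the seripauperin family of cell wall genes, read 2.22, 3.30 and 2.22 in YSBN2 and 10.73, 11.19 and 10.30 in CEN.PK 113-7D (-8.16 ± 0.29, adjusted p = 1.1e-07), by a probe set that may read relatives. ANS1, a putative cell wall protein gene, read 2.00, 2.00 and 1.99 in YSBN2 and 8.72, 10.18 and 9.75 in CEN.PK 113-7D (-7.55 ± 0.29, adjusted p = 1.4e-07). Its SD was 0.748 in the CEN.PK 113-7D chemostats and 0.003 to 0.009 in the other groups, all at the floor. The shared standard error averages over these groups and is smaller for it. YLR031W and YJR115W, of unknown function, differed by -6.39 ± 0.09 and -6.85 ± 0.72. All 4 read 3.39 or lower in every YSBN2 chemostat array and 8.13 or higher in every CEN.PK 113-7D one. Their batch differences, 0.04, 0.00, -0.03 and 0.62, were not called, and each chemostat difference was called as distinct from the batch one (adjusted p = 2.6e-06, 3.7e-06, 5.4e-09 and 0.0014).

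Genes of mating type a were lower in YSBN2 throughout. Of 7 a-specific genes 0 were called higher and 7 lower, with a median of -3.50 against -0.01 over all genes, and with 15.3% of all probe sets called lower. BAR1, the protease that degrades alpha-factor, read 3.14, 4.72 and 3.25 in YSBN2 and 10.52, 10.93 and 11.58 in CEN.PK 113-7D (-7.31 ± 0.47, adjusted p = 6.5e-06). STE2, the alpha-factor receptor, read 8.45, 9.36 and 8.86 in YSBN2 and 12.84, 12.90 and 13.18 in CEN.PK 113-7D (-4.08 ± 0.63, adjusted p = 0.0016). The a-factor transporter gene STE6 differed by -4.06 ± 0.36, the a-factor genes MFA1 and MFA2 by -3.05 ± 0.23 and -3.50 ± 0.88, and the a-agglutinin gene AGA2 by -2.58 ± 0.40. The strains did not overlap in any of the 7, nor in 50.5% of all probe sets. Of the 7, MFA1, MFA2, STE2, STE6 and AGA2 still read 7.18 or higher in every YSBN2 chemostat array. The MFA2 difference was -3.44 without the third CEN.PK 113-7D array, with an adjusted p of 0.05 that no longer passed.

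Haploid-specific genes went the same way, 0 of 13 higher and 12 lower, with a median of -2.29. HO, disrupted in YSBN2, is 1 of the 12. FUS3, the mating MAP kinase, read 1.95 in each YSBN2 array and 9.51, 10.42 and 10.63 in CEN.PK 113-7D (-8.23 ± 0.24, adjusted p = 2e-08). STE18, the G-protein gamma subunit, read 4.21, 5.16 and 4.17 in YSBN2 and 10.18, 10.21 and 10.21 in CEN.PK 113-7D (-5.69 ± 0.32, adjusted p = 2.9e-06). FUS3 was thus at the floor and STE18 near it, while the beta subunit gene STE4 (-2.04 ± 0.11) and RME1, a repressor of meiosis (-2.03 ± 0.13), kept signals above 10 in YSBN2. The arrest factor gene FAR1 differed by -5.47 ± 0.70, the end-joining gene NEJ1 by -5.67 ± 0.70, the alpha subunit gene GPA1 by -3.78 ± 0.85 and the scaffold gene STE5 by -2.22 ± 0.33. SST2, which damps the pheromone signal, was the member not called (-0.25 ± 0.51, adjusted p = 0.77), with YSBN2 at 8.36, 9.16 and 8.76 and CEN.PK 113-7D at 9.07, 8.90 and 9.05. Of 16 genes induced by pheromone 4 were lower and 0 higher, including the a-agglutinin anchor gene AGA1 (-1.95 ± 0.48) and the transcription factor gene TEC1 (-1.71 ± 0.25). AGA1 was no longer called when either the second or the third CEN.PK 113-7D array was left out (-1.87 and -1.83, adjusted p = 0.052 and 0.053), and 1 or 2 of the 4 were called without the second or the third CEN.PK 113-7D or the first or the third YSBN2 array.

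Alpha-specific genes did not rise as a group, with 1 of 4 called higher. MF(ALPHA)1, encoding alpha-factor, read 8.37, 9.30 and 9.01 in YSBN2 and 3.92, 3.91 and 4.47 in CEN.PK 113-7D (4.80 ± 0.83, adjusted p = 0.0028). The a-factor receptor gene STE3 (0.20 ± 0.52) and the alpha-agglutinin gene SAG1 (0.23 ± 0.54) read between 8.81 and 9.89 in the 6 arrays, and MF(ALPHA)2 lay at the floor in all. IME4, the mRNA methyltransferase gene whose sense transcript is made in a/alpha diploids, read 8.26, 9.70 and 9.86 in YSBN2 and 2.74, 2.02 and 2.02 in CEN.PK 113-7D (7.01 ± 0.41, adjusted p = 3.5e-06). Among 25 genes of meiosis and sporulation 5 were higher and 2 lower, with IME4, SPS4 (4.33 ± 0.29) and the meiotic kinase gene IME2 (2.88 ± 0.54) the largest on the higher side and the cohesin gene REC8 (-3.01 ± 0.32) on the lower. All readings of REC8 lay under 6, so that its difference was 0.00 when values under 6 were raised to 6, and the 2 were 1 without any 1 of the arrays other than the first CEN.PK 113-7D one.

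**Figure D2:**
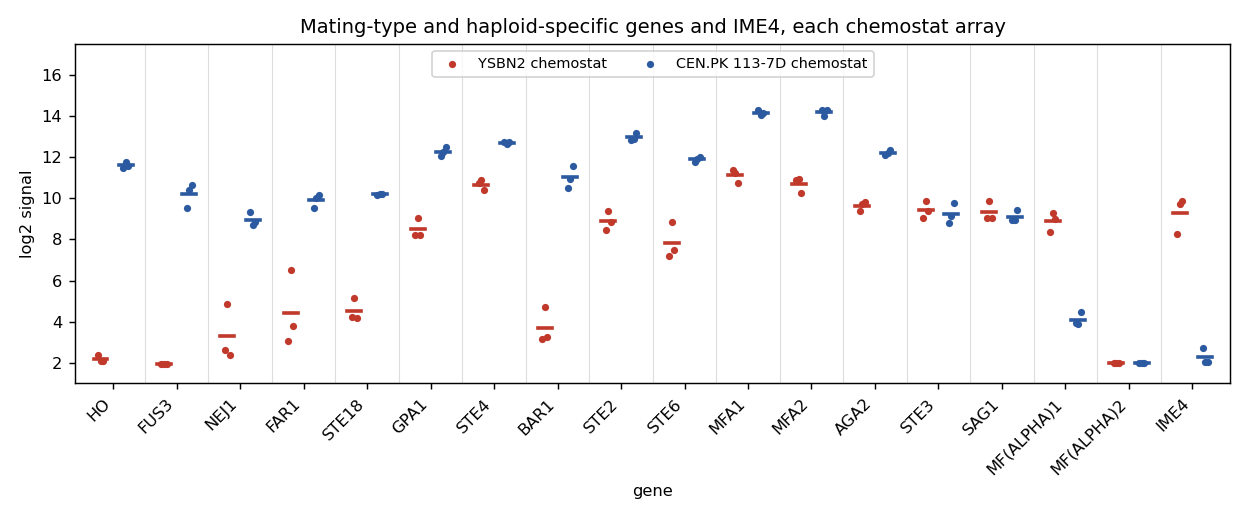
Log2 signal (vertical axis) of HO, haploid-specific, a-specific and alpha-specific genes and IME4 in each of the 3 YSBN2 (left of each gene) and 3 CEN.PK 113-7D chemostat arrays, with group means as bars. From HO to AGA2 every YSBN2 point lies below every CEN.PK 113-7D point, STE3 and SAG1 overlap, and MF(ALPHA)1 and IME4 have signal in YSBN2.

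Genes activated by Hap1, the heme-responsive activator of respiratory and sterol genes, were mostly lower in YSBN2: 1 of 16 was higher and 12 lower, with a median of -0.67. The S288C lineage is known to carry a transposon in HAP1, and whether YSBN2 carries it was not examined. CYC1, the main cytochrome c gene, read 12.58, 12.57 and 12.89 in YSBN2 and 14.79, 14.81 and 14.99 in CEN.PK 113-7D (-2.18 ± 0.11, adjusted p = 1.6e-06). YHB1, the nitric oxide oxidoreductase gene, read 12.81, 12.94 and 13.04 in YSBN2 and 15.52, 15.34 and 15.42 in CEN.PK 113-7D (-2.50 ± 0.10, adjusted p = 1.4e-07). CYB2, the lactate dehydrogenase that passes electrons to cytochrome c, differed by -2.07 ± 0.15, HMG1, an HMG-CoA reductase gene of sterol synthesis, by -1.54 ± 0.06 and CYB5, cytochrome b5, by -1.27 ± 0.14. In all 5 the strains were well apart, at levels far above the floor. The member called higher was the cytosolic catalase gene CTT1 (1.17 ± 0.17), and the second cytochrome c gene CYC7 (-0.24 ± 0.25) was not called. HAP1 itself, chosen with its values in view, read 13.79, 13.88 and 13.87 in YSBN2 and 12.70, 13.01 and 12.71 in CEN.PK 113-7D (1.04 ± 0.19, adjusted p = 0.0036).

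The list of ergosterol synthesis, which shares HMG1 and some ERG genes with the Hap1 list, had 18 of 28 genes lower and 2 higher (median -0.48). ERG13, the HMG-CoA synthase gene, read 12.95, 13.00 and 13.08 in YSBN2 and 14.39, 14.38 and 14.38 in CEN.PK 113-7D (-1.37 ± 0.10, adjusted p = 1.7e-05), and the mevalonate kinase gene ERG12 differed by -1.16 ± 0.11. The 2 called higher were ECM22, a sterol regulator (0.77 ± 0.18), and the farnesyl diphosphate synthase gene ERG20 (0.43). In the respiratory chain and ATP synthase 2 of 37 genes were higher and 8 lower (median -0.09), and 27 were not called. CYC1 had the largest fall, followed by the cytochrome c1 gene CYT1 (-0.98 ± 0.10) and QCR8 was the larger of the 2 higher ones. The 8 were 4 or 5 without any 1 of the 6 arrays, and the 2 were 1 without 4 of them.

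Cytochrome oxidase subunit 5 has an aerobic isoform, COX5A, and a hypoxic one, COX5B. COX5B read 11.13, 11.29 and 10.80 in YSBN2 and 5.82, 5.75 and 7.28 in CEN.PK 113-7D (4.79 ± 0.36, adjusted p = 1.7e-05). COX5A, chosen with its values in view, read 14.62, 14.66 and 14.68 in YSBN2 and 15.12, 15.02 and 15.14 in CEN.PK 113-7D (-0.44 ± 0.12, adjusted p = 0.023). The isoforms were thus called in opposite directions, by unequal amounts, but the call of COX5A was lost without any 1 of the 6 arrays other than the second CEN.PK 113-7D one (-0.42 to -0.45, adjusted p = 0.051 to 0.073). The hypoxic list of 20 genes had no common direction, 3 higher and 4 lower, beside 12.9% and 15.3% of all probe sets. The cell wall gene TIR3 fell by 4.37 on the log2 scale, whereas its relative TIR2 was higher by 2.38 ± 0.53, and the heme synthesis gene HEM13 was lower (-1.35 ± 0.27).

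Genes under nitrogen catabolite repression, which let cells use poor nitrogen sources, were more often higher: 15 of 35 higher and 4 lower, with a median of 0.29, against 12.9% and 15.3% of all probe sets. DAL80, a GATA-type repressor of this regulon that is itself nitrogen regulated, read 8.58, 9.22 and 9.40 in YSBN2 and 3.36, 3.58 and 4.42 in CEN.PK 113-7D (5.28 ± 0.35, adjusted p = 7.7e-06). The allantoin permease gene DAL4 read 9.19, 9.78 and 9.35 in YSBN2 and 5.82, 6.05 and 6.58 in CEN.PK 113-7D (3.29 ± 0.24, adjusted p = 1.5e-05), and its neighbour DAL1, allantoinase, differed by 3.05 ± 0.53, with all 6 readings under 6. The allantoin genes DCG1, DAL7 and DAL3, neighbours on chromosome IX and of which DCG1 and DAL3 were chosen after their values were seen, differed by 1.18, 2.30 and 1.86. The general amino acid permease gene GAP1 and the ammonium permease gene MEP2, chosen the same way, were higher by 1.99 ± 0.10 and 1.36 ± 0.05, with the YSBN2 arrays of each above all CEN.PK 113-7D ones. GDH3, the glutamate dehydrogenase isoform of respiratory growth, read 12.80, 12.64 and 13.01 in YSBN2 and 9.80, 10.43 and 10.45 in CEN.PK 113-7D (2.59 ± 0.32, adjusted p = 0.00045). Called lower were the vacuolar aminopeptidase gene APE1 (-1.43 ± 0.12), the proline oxidase gene PUT1 (-1.37 ± 0.29) and 2 others. The 4 were 2 without the second or the third CEN.PK 113-7D or the first YSBN2 array.

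Genes of amino acid and peptide uptake were called in both directions, 6 of 23 lower and 3 higher (median -0.01, or 0.04 with all arrays set to a common median), and 14 were not called. Several permease genes were among the largest falls. GNP1, the glutamine permease gene, read 2.52, 2.73 and 2.48 in YSBN2 and 10.19, 10.17 and 10.36 in CEN.PK 113-7D (-7.66 ± 0.35, adjusted p = 5.5e-07). TAT2, the tryptophan permease gene, read 3.03, 4.28 and 3.44 in YSBN2 and 9.90, 10.00 and 9.88 in CEN.PK 113-7D (-6.34 ± 0.48, adjusted p = 1.8e-05). Both were near the floor in YSBN2 and had clear signal in CEN.PK 113-7D. The methionine permease gene MUP1 differed by -5.41 ± 0.37, the branched-chain permease gene BAP2 by -4.22 ± 0.40, the peptide transporter gene PTR2 by -3.78 ± 0.43 and the broad-range permease gene AGP1 by -0.93 ± 0.27. The 3 higher ones were the permease gene TAT1 (2.85 ± 0.53), the amino acid sensor gene SSY1 (1.62 ± 0.31) and the arginine permease gene CAN1 (0.67). AGP1 was not called once any 1 of 4 arrays, the second or the third CEN.PK 113-7D and the first or the third YSBN2 one, was left out (-0.72 to -0.94, adjusted p = 0.063 to 0.098), nor was TAT1, a dim gene, when values under 6 were raised to 6 (0.16, adjusted p = 0.71).

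The Ehrlich pathway, which turns amino acids into fusel alcohols, had 7 of 15 genes lower and 0 higher (median -0.48). ARO10, the decarboxylase of its second step, read 2.29, 5.80 and 4.19 in YSBN2 and 10.98, 10.45 and 10.48 in CEN.PK 113-7D (-6.54 ± 0.68, adjusted p = 0.00015). ATF2, an alcohol acetyltransferase gene, differed by -3.11 ± 0.48 and the decarboxylase gene PDC6 by -1.85 ± 0.22. PDR12, an exporter of weak organic acids that is not in this list, read 9.71, 10.13 and 9.56 in YSBN2 and 13.65, 13.79 and 13.64 in CEN.PK 113-7D (-3.89 ± 0.14, adjusted p = 1.1e-07). These genes were lower in each YSBN2 array, and ARO10 varied most between the arrays.

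Of 66 measured genes of amino acid synthesis 25 were lower and 2 higher (median -0.30), with 4 higher without the first CEN.PK 113-7D array or the third YSBN2 batch array. ARG1, argininosuccinate synthase, read 13.86, 13.75 and 13.96 in YSBN2 and 14.96, 15.08 and 14.93 in CEN.PK 113-7D (-1.14 ± 0.08, adjusted p = 1.1e-05), and HIS3 and TRP4 differed by -1.03 ± 0.17 and -0.99 ± 0.15. None of the 25 fell by more than ARG1 did. GCN4, the activator of most of these genes and chosen after its values were seen, did not differ at the RNA level beyond its spread (-0.04 ± 0.07, adjusted p = 0.72). Purine synthesis and salvage had 11 of 24 genes lower and 1 higher (median -0.30). IMD2, an IMP dehydrogenase gene of guanine nucleotide synthesis, read 3.61, 3.42 and 3.29 in YSBN2 and 9.26, 9.65 and 10.06 in CEN.PK 113-7D (-6.21 ± 0.19, adjusted p = 2.6e-08), by a probe set that may read its relatives. The adenine deaminase gene AAH1 was next (-3.63 ± 0.47), before ADE4 and ADE8 (-1.01 ± 0.13 and -0.99 ± 0.10) of the synthesis pathway. In sulfur metabolism 11 of 32 were lower and 3 higher (median -0.19), with MUP1, the siroheme synthesis gene MET8 (-2.89 ± 0.57) and the cystathionine gamma-lyase gene CYS3 (-1.38 ± 0.22) in front. With values under 6 raised to 6 the MET8 difference was -0.29 (adjusted p = 0.56), and the 3 were 1 without the second or the third CEN.PK 113-7D or the second YSBN2 array.

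Targets of the phosphate regulator Pho4 did not move together, with 2 of 17 higher and 7 lower (median -0.34, or -0.15 when values under 6 were raised to 6). Beside PHO5, PHM6 was higher (3.06 ± 0.43). PHO84, the high-affinity phosphate transporter gene, read 2.43, 2.78 and 1.85 in YSBN2 and 5.61, 6.75 and 6.46 in CEN.PK 113-7D (-3.92 ± 0.35, adjusted p = 6.3e-05). PHO89, a sodium-coupled phosphate transporter gene, read 10.28, 10.48 and 10.21 in YSBN2 and 12.69, 12.56 and 12.61 in CEN.PK 113-7D (-2.30 ± 0.66, adjusted p = 0.029). Both transporter genes were thus lower in YSBN2 while PHO5, at the floor in CEN.PK 113-7D in both cultures, was higher. PHO11, also in this list, was not called. The 7 were 4 without the first or the third array of either strain, and the 2 were 4 without the third YSBN2 batch array, which enters through the shared spread. The call of PHO89 was lost without any 1 of the 6 arrays (-2.24 to -2.37, adjusted p = 0.065 to 0.075), and those of PHO84 and PHM6 when values under 6 were raised to 6 (-0.41 and 0.79, adjusted p = 0.13 each). The standard error of PHO89 also holds the spread of the batch arrays, and PHO89 stayed called in a fit of the 6 chemostat arrays alone.

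Among 30 iron genes 5 were higher and 7 lower (median -0.12). After ARN2 the higher ones were the low-affinity transporter gene FET4 (3.57 ± 0.63), TIS11, whose product degrades mRNAs of iron-using proteins (1.83 ± 0.51), the siderophore transporter gene SIT1 (1.73 ± 0.45) and the multicopper oxidase gene FET3 (0.64 ± 0.11), and without the second YSBN2 array 3 were higher. Without that array the calls of TIS11 and SIT1 were lost (1.58 and 1.54, adjusted p = 0.088 and 0.066), as they were without 2 other arrays each. TIS11 was also not called in a fit of the 6 chemostat arrays alone (1.83, adjusted p = 0.076). The FET4 difference was 0.56 (adjusted p = 0.36) when values under 6 were raised to 6. HMX1, heme oxygenase, had the largest fall (-3.76 ± 0.42). CTR3, a copper transporter gene, read 9.73, 10.06 and 9.54 in YSBN2 and 13.89, 13.89 and 14.04 in CEN.PK 113-7D (-4.17 ± 0.17, adjusted p = 2.5e-07), 1 of 2 called lower among 18 zinc and copper genes, and the only one without the first or the third CEN.PK 113-7D or the first or the third YSBN2 array. Of all probe sets 15.3% were called lower, so nothing is read from the count of 2.

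Genes that glucose limitation turns on differed unevenly. In acetate use, the glyoxylate cycle and gluconeogenesis 3 of 24 were higher and 8 lower (median -0.28). MLS1, malate synthase, read 8.71, 9.11 and 9.62 in YSBN2 and 12.81, 12.90 and 12.56 in CEN.PK 113-7D (-3.61 ± 0.63, adjusted p = 0.0029). ATO2, a putative ammonium transporter gene, differed by -3.25 ± 0.23, SIP4, an activator of gluconeogenic genes, by -2.07 ± 0.21 and FBP1, fructose bisphosphatase, by -0.96 ± 0.22. Higher were IDP2, the cytosolic isocitrate dehydrogenase (1.27 ± 0.28), the acetate permease gene ADY2 (0.71 ± 0.09) and DAL7, a second malate synthase gene that belongs to allantoin use. The call of ADY2 was lost with cyclic loess normalization (0.60, adjusted p = 0.068). ADH2 and JEN1, among the strongest in the chemostat, read 16.12 to 16.16 and 14.41 to 14.78 in YSBN2, and 16.07 and 14.31 to 14.62 in CEN.PK 113-7D, and were not called (0.07 ± 0.86 and 0.08 ± 0.11). The standard error of ADH2 also holds the spread of the batch arrays, as its chemostat readings lay close together. Whether signals as high as those of ADH2 still follow the RNA level was not tested. POT1, the thiolase of fatty acid oxidation, fell by 2.38 on the log2 scale, in a list with 1 of 21 higher and 4 lower. FDH1, formate dehydrogenase, read 12.53, 12.92 and 12.52 in YSBN2 and 14.62, 14.93 and 15.11 in CEN.PK 113-7D (-2.23 ± 0.14, adjusted p = 4.9e-06). In the TCA cycle 3 of 17 were lower, a share near the 15.3% of all probe sets, and 0 higher. The malic enzyme gene MAE1 (-3.02 ± 0.38) had the largest fall.

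Genes of sucrose and maltose use had 5 of 11 lower and 1 higher (median -0.98, or -0.62 when values under 6 were raised to 6), with 2 higher without the first YSBN2 array. MAL32, maltase, read 9.25, 9.43 and 9.24 in YSBN2 and 13.35, 13.42 and 13.55 in CEN.PK 113-7D (-4.13 ± 0.21, adjusted p = 1.6e-06), by a probe set that may read the second maltase gene. MAL11, the alpha-glucoside transporter gene, read 6.93, 8.46 and 6.53 in YSBN2 and 11.59, 11.58 and 11.71 in CEN.PK 113-7D (-4.32 ± 0.61, adjusted p = 0.00089). The isomaltase gene IMA5 (-1.88 ± 0.23) and the invertase gene SUC2 (-1.25 ± 0.20) were lower too. Hexose transport had 2 of 17 lower and 0 higher, or 4 lower without the third YSBN2 batch array, and in glycolysis 2 of 18 were higher and 2 lower, HXK2 (0.46 ± 0.09) having the largest called difference. With all arrays 12.9% of all probe sets were called higher and 15.3% lower, so nothing is read from these counts. The 2 lower glycolysis genes were 0 without any 1 of the arrays other than the third YSBN2 one, and the 2 higher were 1 without the second CEN.PK 113-7D or the first or the third YSBN2 array. In the pentose phosphate pathway 5 of 13 were lower and 0 higher, with SOL4 at -1.68 ± 0.41 and the transketolase gene TKL1 at -0.59 ± 0.06. The 5 were 3 without the first YSBN2 array, and the call of SOL4 was lost without it (-1.55, adjusted p = 0.053) or without the second CEN.PK 113-7D array (-1.52, adjusted p = 0.057).

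Trehalose and glycogen genes tended the other way, with 9 of 23 higher and 0 lower (median 0.60). GSY2, the main glycogen synthase gene, read 14.90, 14.87 and 14.81 in YSBN2 and 12.98, 13.06 and 13.06 in CEN.PK 113-7D (1.82 ± 0.55, adjusted p = 0.035). NTH2, a trehalase gene, differed by 1.14 ± 0.24 and GPH1, glycogen phosphorylase, by 0.90 ± 0.15. The 3 YSBN2 arrays lay above the CEN.PK 113-7D ones in each of these, but the count of 9 was 4 or 5 without any single chemostat array other than the third CEN.PK 113-7D one. The call of GSY2 was lost without any 1 of the 6 arrays (1.80 to 1.85, adjusted p = 0.073 to 0.087). Its standard error also holds the spread of the batch arrays, and GSY2 stayed called in a fit of the 6 chemostat arrays alone.

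Chaperone and heat shock genes were lower in YSBN2, 16 of 26, and 0 were higher (median -0.71), with 15.3% of all probe sets called lower. SSA3, a stress-induced Hsp70 gene, read 11.43, 11.56 and 11.87 in YSBN2 and 14.50, 14.96 and 14.46 in CEN.PK 113-7D (-3.02 ± 0.19, adjusted p = 6.5e-06). HSP30, a plasma membrane stress protein gene, read 10.36, 10.85 and 10.86 in YSBN2 and 13.78, 14.06 and 13.50 in CEN.PK 113-7D (-3.09 ± 0.44, adjusted p = 0.00098). BTN2, of protein sorting and prion curing, differed by -2.39 ± 0.33, SSA4 by -1.65 ± 0.21 and HSP82, an Hsp90 gene, by -1.06 ± 0.22. The small heat shock genes HSP12 and HSP26, near the top of the signal range in both strains, were not called (0.09 ± 0.09 and -0.23 ± 0.35). The proteasome moved as a block by a small amount, 30 of 33 genes lower and 0 higher (median -0.57), and all 33 had YSBN2 arrays wholly below the CEN.PK 113-7D ones. Of all probe sets 50.5% had strains that did not overlap, in either direction. PRE4, a core particle gene, read 13.24, 13.11 and 13.24 in YSBN2 and 14.20, 14.18 and 14.19 in CEN.PK 113-7D (-0.99 ± 0.10, adjusted p = 0.00016), and RPN10 and PRE8 differed by -1.54 ± 0.26 and -1.14 ± 0.18.

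The median differences of mitochondrial and cytosolic ribosomal protein genes had opposite signs. Of 71 mitochondrial ribosomal protein genes 39 were lower and 0 higher (median -0.54), for example RSM7, with 10.31, 10.64 and 10.73 in YSBN2 and 11.91, 12.27 and 12.39 in CEN.PK 113-7D (-1.63 ± 0.25, adjusted p = 0.0016). Of 128 cytosolic ribosomal protein genes 29 were higher and 1 lower (median 0.13, and 3 or 4 lower without the first CEN.PK 113-7D or the third YSBN2 batch array), with RPS10B at 0.61 ± 0.16, RPS7B at 0.55 ± 0.15 and RPS27A at 0.44 ± 0.07. The largest of these rises was thus under 1 log2 unit. The 39 were 20 without the third CEN.PK 113-7D array and 22 without the first YSBN2 array. The 29 were 9, 9, 7 and 13 without the second or the third CEN.PK 113-7D or the first or the second YSBN2 array, in that order. In the same fits 450, 532, 534 and 436 of all 5716 probe sets were called higher. RPS10B lost its call without the third CEN.PK 113-7D or the first YSBN2 array (adjusted p = 0.069 and 0.068), and RPS7B without any 1 of 4 arrays (adjusted p = 0.054 to 0.066). For 55 ribosome biogenesis genes the counts were 0 higher and 5 lower, and 5 higher and 15 lower without the third YSBN2 batch array. With all arrays 12.9% of all probe sets were called higher and 15.3% lower.

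Genes of cell separation, which daughter cells transcribe after division to digest the septum, were higher in YSBN2: 10 of 11, with 0 lower and a median of 1.43. PRY3, a cell wall protein gene, read 13.12, 13.11 and 13.17 in YSBN2 and 9.96, 10.60 and 10.41 in CEN.PK 113-7D (2.81 ± 0.28, adjusted p = 0.00012). DSE1, a daughter-specific gene, read 14.28, 14.22 and 13.81 in YSBN2 and 12.13, 11.52 and 11.60 in CEN.PK 113-7D (2.35 ± 0.28, adjusted p = 0.00035). The glucanase genes SCW11 (1.63 ± 0.11), EGT2 (1.15 ± 0.11) and SUN4 (1.40 ± 0.09) and the chitinase gene CTS1 (0.95 ± 0.08) were higher too, and AMN1 was the member not called (-0.06). Of 9 measured histone genes 8, the core and variant ones, were higher, by up to 0.54 ± 0.06 (HTB2), with 0 lower. The linker histone gene HHO1 was not called (-0.40 ± 0.31). Among 14 cyclins and their regulators 5 were higher and 1 lower: the mitotic cyclin gene CLB2 read 10.55, 10.56 and 10.52 in YSBN2 and 8.81, 8.87 and 9.14 in CEN.PK 113-7D (1.60 ± 0.21, adjusted p = 0.00055), and the G1 cyclin gene CLN2 fell by 4.01 on the log2 scale. The G1 cyclin gene CLN1 was called higher, as were CLB1, SIC1 and PCL9, so the G1 cyclins had no common direction. The 5 were 1 to 3 without any 1 of the arrays other than the third CEN.PK 113-7D one.

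**Figure D3:**
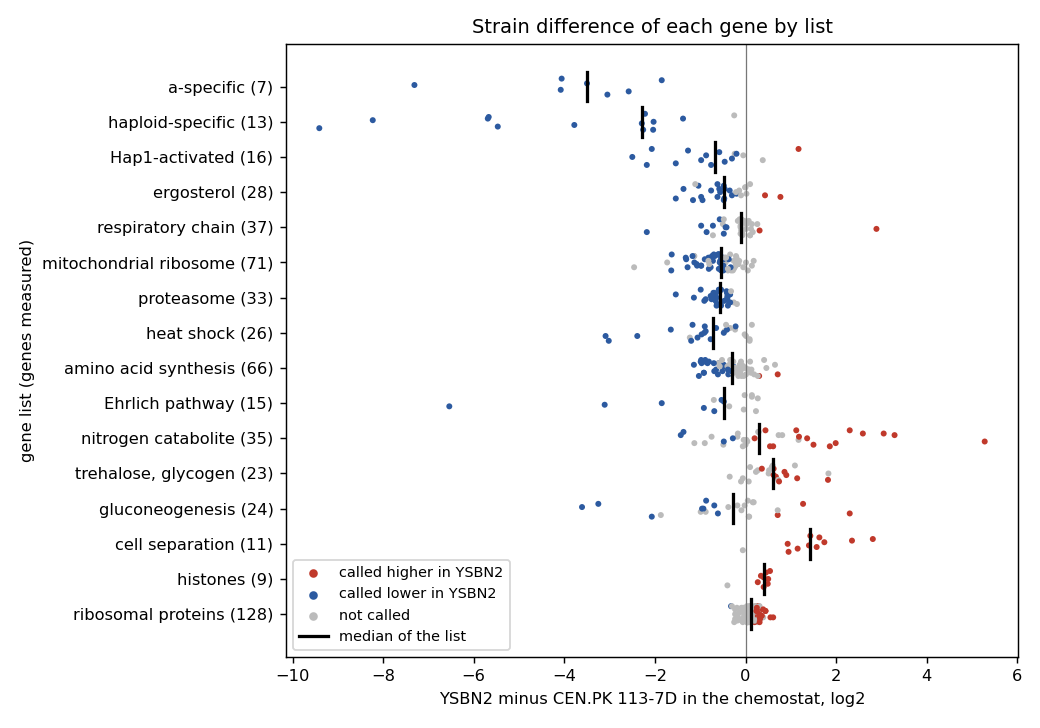
Difference between YSBN2 and CEN.PK 113-7D in the chemostat (horizontal axis, log2) for every measured gene of 16 lists (vertical axis), with called genes in colour and the median of each list as a bar. The medians run from -3.50 for the a-specific genes to 1.43 for the cell separation genes. All proteasome points and most mitochondrial ribosome points lie below 0, and most histone points lie above it.

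The strain difference was then set beside that of the batch cultures, which shares no array with it. Over all probe sets the differences correlated at r = 0.52 (Spearman's rho 0.46), as a description across probe sets that are not independent. Of the 736 probe sets called higher in the chemostat 355 (48.2%) were also called higher in batch, 10 were called lower there and 371 were not called, and the 355 were 33.5% of the 1060 called higher in batch (18.5% of all). Of the 877 called lower 317 (36.1%) were also lower in batch, 64 were higher there and 496 were not called, and the 317 were 52.7% of the 601 called lower in batch (10.5% of all). The difference between the strain differences was itself called for 882 of 5716 probe sets (15.4%), in 248 cases (4.34%) in the positive direction and in 634 (11.1%) in the negative one. The balance of directions depended on the scaling, with 409 positive and 483 negative under a common array median and 537 and 523 after quantile normalization. Without the third YSBN2 batch array, which stood apart, 1482 were called. It was called for 194 (26.4%) of the 736 and for 311 (35.5%) of the 877.

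Some of the largest differences were close in size in both cultures. HO differed by -9.41 in the chemostat and -10.18 in batch, and the 0.77 between these was called (adjusted p = 0.0071). HAL5 differed by 9.24 in the chemostat and 8.81 in batch, PHO5 by 7.22 and 7.22, FUS3 by -8.23 and -8.52 and AQY2 by -5.13 and -4.74, and for these 4 genes the difference of the strain differences was not called (adjusted p = 0.47, 1.0, 0.64 and 0.48). CYC1 behaved in the same way, at -2.18 in the chemostat and -2.05 in batch. The a-specific genes were lower in both, but the chemostat median was -3.50 and the batch one -7.59, and 5 of the 7 were called as distinct, or 6 without the third YSBN2 batch array. AGA2 differed by -2.58 in the chemostat and by -8.00 in batch, where YSBN2 read 3.15, 3.58 and 5.04 and CEN.PK 113-7D 11.59, 12.04 and 12.14.

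Other groups differed in their balance of calls between the cultures. Heat shock genes were 0 higher and 16 lower in the chemostat (median -0.71) and 9 higher and 2 lower in batch, where their median of 0.02 was that of all genes, and the difference was called for 12 of 26. Phosphate targets were 2 higher and 7 lower in the chemostat and 11 higher and 0 lower in batch, with PHO84 at -3.92 ± 0.35 in the chemostat and 12.23 ± 0.35 in batch (14.48, 14.92 and 14.46 in YSBN2 against 1.86, 2.53 and 2.78 in CEN.PK 113-7D). Both sizes are limited by the floor. PUT1 was lower in the chemostat (-1.37) and higher in batch (4.45), as were SOL4 (-1.68 and 5.10), SSA3 (-3.02 and 1.31), IMD2 (-6.21 and 1.33), MLS1 (-3.61 and 3.59), APE1 (-1.43 and 1.99), PTR2 (-3.78 and 1.32), HSP30 (-3.09 and 2.99), SSA4 (-1.65 and 2.23) and PDR12 (-3.89 and 0.84). All 10 batch differences were called, and so was each difference between the cultures. ARO10 and POT1 lay at the floor in both strains in batch, and GPH1 differed by 0.90 in the chemostat and 8.31 in batch, where CEN.PK 113-7D read 2.83 to 3.10. The third YSBN2 batch array stood apart for some of these genes: PUT1 read 12.99 in it against 14.23 and 14.29 in the other YSBN2 batch arrays. Without it heat shock genes were 10 higher and 3 lower in batch, phosphate targets 11 higher and 0 lower, and the difference between the cultures was called for 18 of 26 and 11 of 17 genes. Of those 10 genes PTR2 was no longer called in batch (0.82, adjusted p = 0.079), and the difference between the strain differences stayed called for 90 of the 92 probe sets named in the text for which it was called, the exceptions being RPS10B and EGT2.

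**Figure D4:**
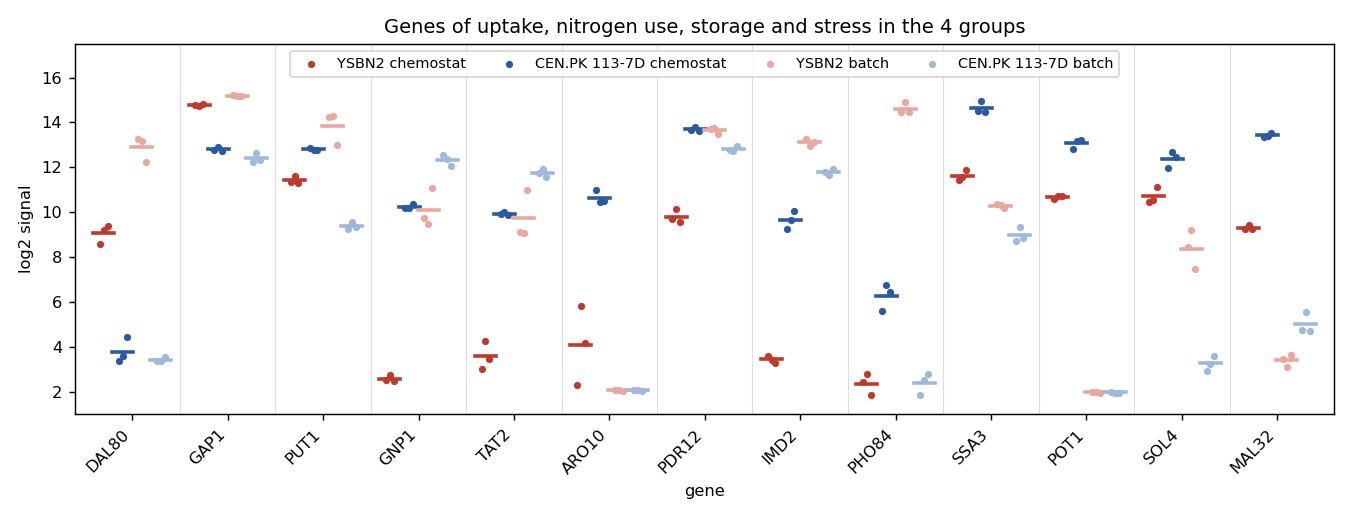
Log2 signal (vertical axis) of 13 genes in each of the 3 arrays of YSBN2 and CEN.PK 113-7D in the chemostat (dark points) and in batch (pale points), with group means as bars. DAL80 and GAP1 are higher in YSBN2 in both cultures, GNP1 and TAT2 lower in both, and PUT1, IMD2, PHO84, SSA3 and SOL4 are lower in the chemostat and higher in batch.

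**Figure D5:**
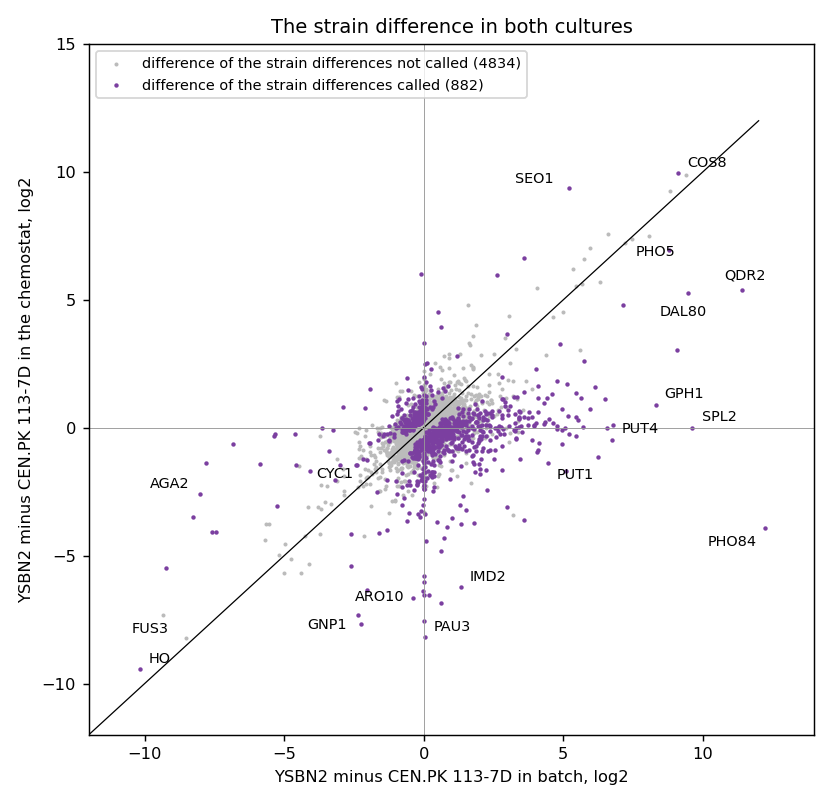
Strain difference of each probe set in the chemostat (vertical axis, log2) against that in batch (horizontal axis, log2), with the line of equal difference and the 882 probe sets in colour for which the 2 differences were called as distinct. Genes such as COS8, PHO5, FUS3 and HO lie near the line, PAU3 and ARO10 on the vertical axis, GPH1 and SPL2 far right near 0, and PHO84 at the lower right.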

How the data were processed

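Per the labels, RNA of 12 yeast cultures was hybridized to Affymetrix yeast arrays, and the submitters' processing notes name R 2.6, affy and RMA, with no role or order. The authors deposited 1 value per probe set and array. These were read as log2 signals from their range, since the log base is not given in the sources used here, and were used as deposited. Probe sets were named through GEO's platform annotation, with symbols updated from RefSeq assembly R64. Of 5716 probe sets 5498 had 1 gene and 218 none, and 106 and 26 carry suffixes of sets that may read several genes.

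A linear model with 1 mean per group was fitted to all 12 arrays with limma 3.58.1 in R 4.3.3 (lmFit and eBayes, 8 residual degrees of freedom), with the Benjamini-Hochberg adjustment across all 5716 probe sets. Its contrasts were YSBN2 minus CEN.PK 113-7D in the chemostat, the same in batch, and the difference between these. The procedure was tested on simulated data with known changes. A gene in a list is represented by its brightest probe set. Tables and figures were made with Python 3.11.15, numpy 2.4.6, pandas 2.3.3 and matplotlib 3.10.9.

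The named genes are HO, the 10 largest called rises and falls without overlap between the strains, over all probe sets and with both means at 6 or above, in each gene list and direction at most 3 called members, members of lists of up to 30 genes, and neighbouring genes with signal in 1 strain. Members and lists were chosen with earlier results of these data known. The numbers of arrays, 3 per group, limit the precision, and p-values measure the spread between these arrays. Alternatives covered scaling, filters on dim probe sets, a floor, variance settings, thresholds, the replicate block and each left-out chemostat array.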

Additional observations from a re-analysis of the deposited data

Results flagged for a closer look

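For 92 of the 170 probe sets of named genes the strain difference in the chemostat differed from that in batch, by limma's test of the difference between the 2 strain differences (adjusted p under 0.05 over all 5716 probe sets). Over all probe sets it was called for 882 (15.4%). The named genes were chosen largely for their chemostat differences, which enter the value tested, so nothing is read from the share among them. Each value below is the chemostat difference minus the batch difference on the log2 scale, so a negative one means that YSBN2 stood lower relative to CEN.PK 113-7D in the chemostat than in batch. All rest on 3 arrays per group.

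Among genes with signal in 1 strain the value was 4.14 for SEO1, 0.85 for COS8, -1.85 for AIF1 and 0.77 for HO. KRS1, with signal in both strains, had 0.70. For genes seen in the CEN.PK 113-7D chemostats alone it was -8.19 for PAU3, -7.56 for ANS1, -7.47 for YJR115W, -6.36 for YLR031W and -4.96 for YAR066W. The seripauperin genes PAU18 and PAU4 went the other way, at 3.04 and 3.35.

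Mating genes had mostly positive values, so that YSBN2 stood farther below CEN.PK 113-7D in batch than in the chemostat, and SST2 was called lower in batch but not in the chemostat. They were 5.42 for AGA2, 4.78 for MFA2, 3.51 for STE2, 3.39 for STE6 and 2.20 for MFA1 among the a-specific genes. Among haploid-specific genes they were 4.35 for SST2, 3.75 for FAR1 and 1.13 for STE4, with RME1 at -0.73. The meiotic gene REC8 stood at -2.97.

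Among heme and respiratory genes the value was -5.46 for CYC7, -2.92 for CTT1, -2.34 for COX5B, -1.53 for CYB2, -1.04 for HAP1 and -0.83 for YHB1, and 0.77 for CYB5.

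Among genes under nitrogen catabolite repression, 19 of 35 of which were called, the values were -5.82 for PUT1, -4.20 for DAL80, -3.42 for APE1, -3.17 for GDH3, -1.71 for DAL7, -1.58 for DAL4 and -0.80 for GAP1. Permease genes had -5.43 for GNP1, -5.09 for PTR2, -4.32 for TAT2 and -2.80 for MUP1. In the Ehrlich pathway ARO10 had -6.54 and PDC6 -2.09. In synthesis IMD2 had -7.55, AAH1 -3.04, CYS3 -1.39, ARG1 -1.16, HIS3 -0.87 and ADE8 -0.49.

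Of the metal and phosphate genes PHO84 had -16.15, a size limited by the floor, where it lay in the YSBN2 chemostats and the CEN.PK 113-7D batch cultures, and SPL2, a phosphate regulator gene, had -9.64. SIT1 had -3.42 and CTR3 -1.58.

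Carbon genes were -7.21 for MLS1, -3.16 for ATO2, -1.84 for SIP4, -2.38 for POT1, -2.23 for FDH1 and -2.26 for MAE1, and 0.66 for ADY2. In sugar use the values were -5.03 for MAL11, -2.52 for MAL32, -2.26 for IMA5 and -1.81 for SUC2, with HXK2 at 0.47, SOL4 at -6.78 and TKL1 at -0.49. Storage genes gave -7.41 for GPH1, -2.97 for GSY2 and -1.71 for NTH2.

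Heat shock genes gave -6.09 for HSP30, -4.33 for SSA3, -3.89 for SSA4, -3.86 for HSP12 and -2.98 for HSP26, with GRE1 at -2.80 and RGI1 at -2.03. Exporters gave -6.06 for RSB1, -6.03 for QDR2, -4.73 for PDR12, -1.90 for FLR1 and -1.38 for TPO1.

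Positive values came from ribosomal protein genes, with 0.58 and 0.91 for the 2 probe sets of RPS10B, 0.78 for RPS7B and 0.46 for RPS27A. Cell separation genes were positive too, at 1.62 for PRY3, 0.87 for SUN4, 0.75 for SCW11 and 0.51 for EGT2, as were HTB2 at 0.43 and CLB2 at 1.71, while CLN2 had -2.71.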

How the results depend on the processing

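Of the 170 named probe sets 156 were called, and none of these changed sign under the alternatives tried, though REC8 and DAL1 differed by 0.00 when values under 6 were raised to 6. Of the 156, 49 lost the call somewhere. A minimum change of 1.5-fold (limma's treat) ended 40 calls and an adjusted p under 0.01 ended 14. Values under 6 raised to 6 ended 8, the replicate number as a block over the 6 chemostat arrays 8, and cyclic loess and a fit of the 6 chemostat arrays alone 1 each. Leaving out 1 array at a time ended 12. The common array median, quantile normalization, array weights and trended and robust variances ended none. Without the 25% and the 50% dimmest probe sets only 83 and 67 of the 170 remained. None of these lost a call, and the filters could not test the removed ones.

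The 1613 called in the chemostat (736 higher, 877 lower) were 1053 (471 and 582) without the 50% dimmest probe sets, 2547 (1153 and 1394) with array weights, 860 (358 and 502) at an adjusted p under 0.01 and 265 (95 and 170) at 1.5-fold. The 882 differences between the strain differences (248 positive, 634 negative) were 532 without the 50% dimmest (358 negative), 1974 (741 and 1233) with array weights, 407 (76 and 331) at 0.01 and 240 (28 and 212) at 1.5-fold. They were 409 and 483 with a common array median and 537 and 523 after quantile normalization. Leaving out 1 array gave 1056 to 2200 called, 436 to 1038 higher and 564 to 1162 lower, and 593 to 1482 differences between the strain differences, 131 to 586 positive and 462 to 896 negative. The 17 and 15 probe sets with signal in 1 strain were 28 and 25 with limits of 5 and 7, and 7 and 7 with limits of 3 and 9. The median of all probe sets moved by at most 0.05 under a scaling. Of 51 list medians 15 moved beyond the spread between arrays with a common array median, 12 after quantile normalization, 5 with values under 6 raised to 6 and 0 with cyclic loess. Of 76 list counts 28 moved by over 1.5 times when some single array was left out.

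Same-numbered chemostat arrays deviated from their group means with correlations of 0.6, -0.1 and 0.2, so the numbers were not taken as pairs. With the replicate block 1757 probe sets were called over 12 arrays and 1815 over 6, and 963 differences between the strain differences. The small number of arrays and the floor near 2 limit the precision for dim genes.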

Other observations

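Transporters that export drugs, lipids and organic ions differed in both directions in the chemostat, with 5 of 23 higher and 7 lower in YSBN2 (median -0.26, or -0.04 when values under 6 were raised to 6). QDR2, a multidrug and cation exporter gene, read 11.80, 11.80 and 11.40 in YSBN2 and 6.27, 5.50 and 7.05 in CEN.PK 113-7D (5.39 ± 0.34, adjusted p = 5.8e-06). RSB1, of the export of sphingoid bases, was higher by 3.02 ± 0.65, with 4.00, 6.94 and 4.01 in YSBN2 and 1.96 to 1.97 in CEN.PK 113-7D, while PDR12, FLR1 (-2.11 ± 0.27) and the polyamine exporter gene TPO1 (-1.72 ± 0.27) were lower. The pyridoxine genes SNO1 and SNZ1, neighbours on chromosome XIII, were lower together, SNO1 with 5.22, 6.18 and 5.30 in YSBN2 and 8.70, 8.97 and 8.56 in CEN.PK 113-7D (-3.18 ± 0.24, adjusted p = 1.8e-05) and SNZ1 by -1.92 ± 0.12, in a list of 19 vitamin genes with 1 higher and 7 lower, or 3 higher without the third YSBN2 batch array. The call of RSB1 was lost when values under 6 were raised to 6 (0.31, adjusted p = 0.38).

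The seripauperin genes, a family of near-identical subtelomeric cell wall genes, were called in both directions, 2 of 13 higher and 6 lower. PAU18 read 9.65, 10.23 and 9.59 in YSBN2 and 2.66, 2.88 and 4.04 in CEN.PK 113-7D (6.63 ± 0.50, adjusted p = 1.8e-05), and PAU4 differed by 5.98 ± 0.39, both by probe sets that may read other members. The 6 were 3 without the second CEN.PK 113-7D or the first YSBN2 array. Of 18 genes of small stress proteins 2 were higher and 4 lower, among them the hydrophilin gene GRE1 (-2.48 ± 0.25) and the respiratory growth gene RGI1 (1.22 ± 0.27), and without any 1 of 4 chemostat arrays 1 was higher and 2 were lower. Among the 1613 called probe sets 66 had no gene in the annotation used here and are not described.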
